A study of Mus musculus with 2 samples.

Results

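The genes described here are 10 genes of fat storage and fat-cell hormones, followed in sorted stromal cells of the mouse mammary gland. They were Car3, Fabp4, Lpl, Plin1, Adipoq, Lep, Retn, Cd36, Cidec and Pnpla2, found by symbol among 24646 named genes of the deposited array table, and all 10 were present. A symbol on several rows was represented by its brightest row, by mean signal. Cells were sorted for green fluorescence from the Rosa26mTmG reporter, which turns from red to green fluorescence in cells that have carried Cre. Cre was driven by the Fsp1 (S100a4) promoter in both groups, so any cell type with past activity of that promoter could enter the sort. There was 1 control sample (Gli2WT) and 1 sample with Gli2 ablated in the stroma (Gli2∆S), from littermates at 10 weeks of age, and how many mice each sample held is not stated in the labels. With 1 array per group, no value below has a replicate, no test between groups is possible, and every difference describes these 2 samples.

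White fat cells take up fatty acids that lipoprotein lipase frees from blood lipoproteins, carry them on binding proteins, store them as triglyceride in a droplet coated by perilipin, and release them again through lipases. They also secrete hormones such as adiponectin, leptin and, in the mouse, resistin. The mammary epithelium grows within a fat pad, and fat cells and their fibroblast-like progenitors are both part of its stroma. Several genes of fatty acid uptake are also used outside fat cells: Fabp4 and Cd36 in capillary endothelium and macrophages, and Lpl in macrophages and muscle.

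All signals are log2 values, and all differences are ablated minus control; ablated and control cells below mean the cells of these 2 samples. Signals ran from 1.73 to 13.6 over the array, with a median of 6.13 in each sample. The table gives no detection calls, so genes of smell and pheromone receptors (Olfr and Vmn), taken as silent in this tissue, served as a yardstick. The 95th percentile of their 1497 rows was 7.17 in control and 7.30 in ablated cells. Of all genes, 31.5% lay above both values, and so did 4 of the 10 fat genes. The targeted gene Gli2 had a signal of 5.94 in control and 5.32 in ablated cells, both inside that silent-gene range, and where its probes lie relative to the deleted part is not stated.

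The fat genes fell into a bright set of fatty acid handling genes and a set of fat-cell hormones and droplet proteins that were dim, meaning within the silent-gene range. Fabp4, Cd36, Lpl and Pnpla2 stood above the silent-gene range in both samples, and Car3 did so in the control sample only. Plin1, Cidec, Adipoq, Lep and Retn, which include the most fat-cell-restricted genes of the set, lay within it in both. The data therefore do not show that mature fat cells were in the sort, and the genes are described below by what they encode. The 10 genes were chosen with earlier results of these data known, so their counts beside those of all genes are descriptions only. All 10 had a lower signal in the ablated sample, against 47% of all genes, though Cidec only by 0.01, which quantile scaling took to 0 and loess scaling to the other side of 0. They had a median difference of -0.435, against 0 over all genes. Car3 alone was at least 2-fold lower (1 of 10, against 0.933% of all genes), 0 of 10 were at least 2-fold higher (0.304% of all genes), and 3 of 10 were at least 1.5-fold lower, against 3.3% of all genes. In RNA from a mixed sort, fewer cells of a type and less RNA per cell cannot be told apart.

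**Figure D1:**
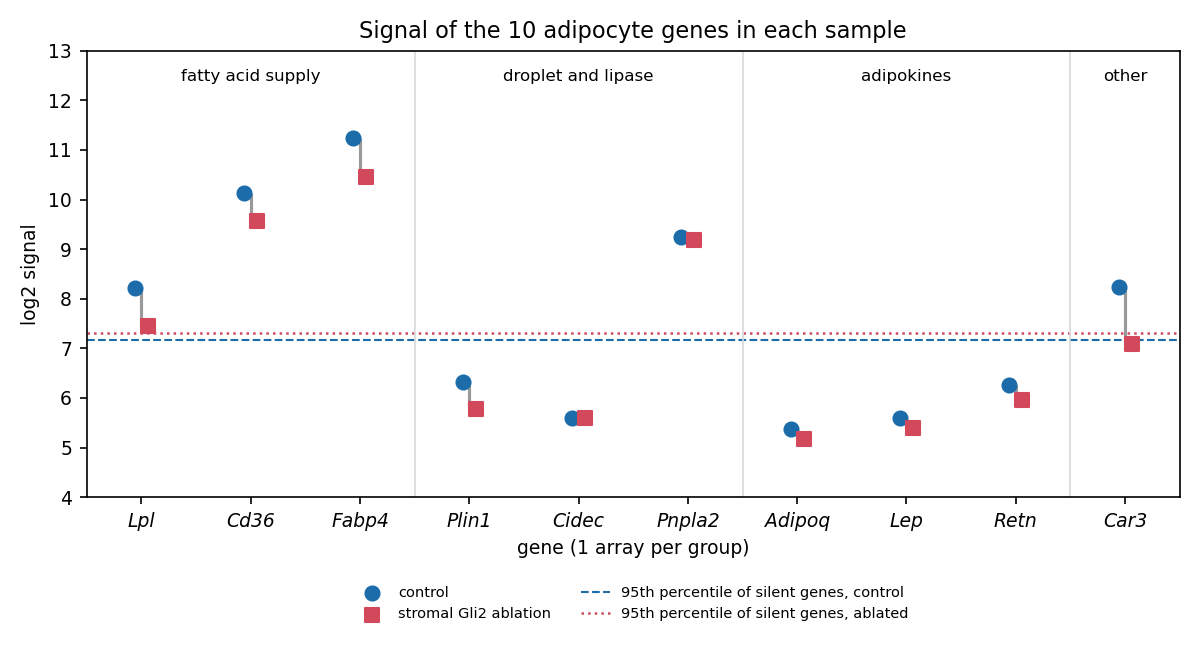
The log2 signal of each of the 10 genes in the control sample (circles) and in the sample with stromal Gli2 ablation (squares), 1 array each, grouped by role. Dashed and dotted lines mark the 95th percentile of silent receptor genes, 7.17 and 7.30; Plin1, Cidec, Adipoq, Lep and Retn lie below both lines.

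Fatty acid supply and binding. Fabp4, the cytosolic fatty acid carrier of fat cells, had a signal of 11.25 in control and 10.46 in ablated cells. That was 1.73-fold lower (difference -0.79), from a signal brighter than all but 0.0668% of the silent receptor rows in either sample. Of 413 genes within 0.5 of its mean signal, 3.15% had a difference as low. Cd36, a membrane receptor that helps long-chain fatty acids enter cells, had 10.14 and 9.57, which was 1.48-fold lower (difference -0.57). Of 1197 genes of like signal, 2.59% were as low as Cd36. Lpl, the secreted lipase that frees fatty acids from lipoproteins, had 8.21 and 7.44, which was 1.71-fold lower (difference -0.77), and 3.34% of 3598 genes of like signal were as low. All 3 genes of this role were lower in the ablated sample, by 0.57 to 0.79, and each lay inside the middle 95% of genes of its own signal, whose lower edges were -0.925 for Fabp4, -0.571 for Cd36 and -0.89 for Lpl. Lpl also stood on a second, dim row with signals of 4.73 and 4.45 (difference -0.28), which names only 1 of the transcripts of the bright row. With both rows averaged, the difference of Lpl was -0.525.

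Carbonic anhydrase. Car3 encodes a cytosolic carbonic anhydrase that is abundant in fat cells and in skeletal muscle. Its signal was 8.24 in control and 7.09 in ablated cells, which is 2.22-fold lower (difference -1.15). The ablated signal was 0.21 below the silent-gene value there, so the fold rests on a lower signal that is not shown to exceed background; with 1 row per silent gene the limit was 6.78, and Car3 passed it. Of 3800 genes of like signal, 40 (1.05%) had a difference as low, and Car3 was the 1 gene of the 10 outside the middle 95% of such genes. Car3 had a second row listing the same transcripts, with 5.63 in control and 4.87 in ablated cells (difference -0.76), dim in both. Both rows were lower in the ablated sample, and averaging them gave -0.955, just under 2-fold.

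Droplet coat and lipase. Pnpla2, the adipose triglyceride lipase that starts the breakdown of stored fat in many tissues, had 9.24 in control and 9.19 in ablated cells (difference -0.05). It was well above the silent-gene range in both, and 29.0% of 1897 genes of like signal were as low. Plin1, the perilipin that coats the fat-cell droplet and guards it from lipases, had 6.33 and 5.78. Its difference of -0.55 (1.46-fold) was matched by 3.56% of 5779 genes of like signal, but 9.62% of silent receptor rows were at least as bright as Plin1 in control and 20.7% in ablated cells. Cidec, which lets small droplets merge into the single large droplet of white fat cells, had 5.60 and 5.59 (difference -0.01), with 22.6% and 25.7% of silent rows at least as bright. Pnpla2 and Cidec thus lay at nearly the same value in both samples, while Plin1 was lower at a signal not separable from silent genes.

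Adipokines. Adiponectin, Adipoq, a hormone that raises insulin sensitivity and is made almost only by fat cells, had a signal of 5.38 in control and 5.17 in ablated cells (difference -0.21). Leptin, Lep, the satiety hormone, had 5.59 and 5.39 (difference -0.20). Resistin, Retn, had 6.27 and 5.95 (difference -0.32). All 3 were slightly lower in the ablated sample, at signals where 10.4% to 35.2% of the silent receptor rows were as bright or brighter. Genes of like signal had a middle 95% from -0.55 to 0.56 for Adipoq, from -0.55 to 0.54 for Lep and from -0.61 to 0.51 for Retn, and all 3 differences lay well within it.

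**Figure D2:**
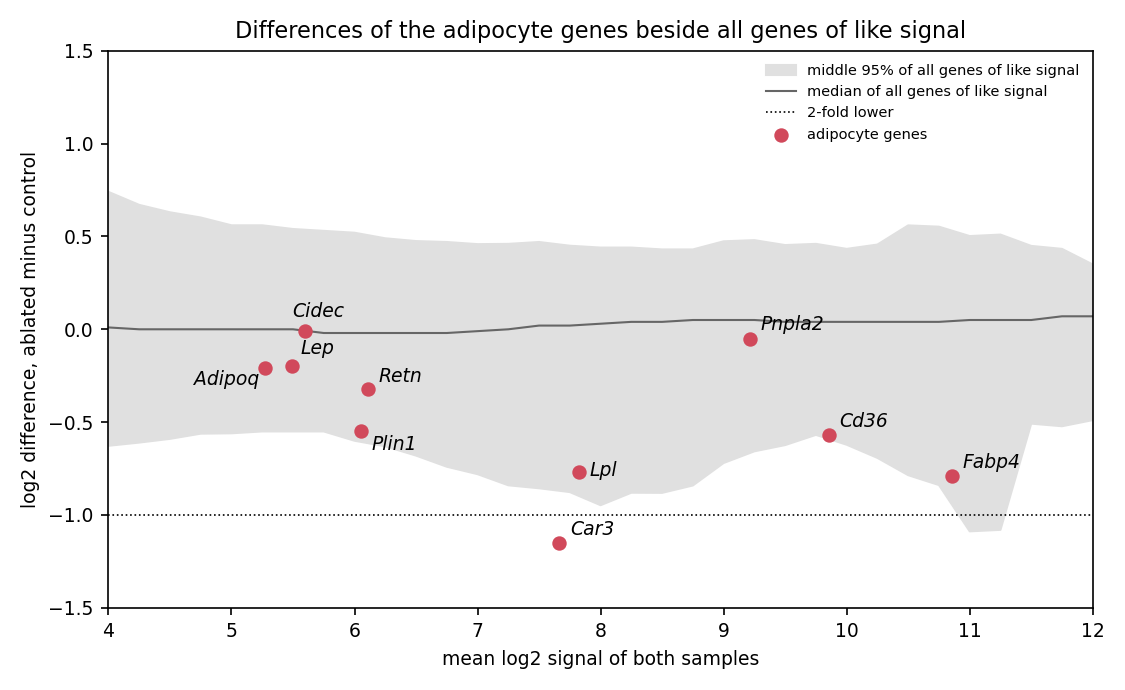
The log2 difference (ablated minus control) of each of the 10 genes against its mean log2 signal, 1 array per group, with the median (line) and middle 95% (grey) of all genes within 0.5 of that signal. Car3, at -1.15, lies below the grey area and the dotted line of 2-fold, Cd36 lies at its lower edge, Plin1, Lpl and Fabp4 lie inside it near that edge, and Pnpla2 and Cidec lie near 0.

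For the gene lists below, a signal filter kept a gene whose brighter signal reached 6.445, the median of such values. Car3, Fabp4, Lpl, Cd36 and Pnpla2 passed it, each in both samples, and the other 5 did not. No list gene passed through the ablated sample alone, and those that passed through the control alone were lower by construction, so counts over all genes found on a list stand beside the filtered ones. The 5 fat genes that passed had a median difference of -0.77, against 0.02 over all 12323 genes that passed, and the 5 that did not pass ranged from -0.55 to -0.01. In the authors' deposited table the signed folds of control over ablated were 2.22 for Car3, 1.73 for Fabp4, 1.71 for Lpl, 1.48 for Cd36, 1.47 for Plin1 and 1.03 for Pnpla2.

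The genes most like Car3 and Fabp4 in pattern, over 2 samples, were taken as those within 0.5 of the mean signal with the nearest difference, ties going to the nearer mean signal. For Car3 they were Ifi202b, an interferon-activated gene, Serpinh1, the collagen chaperone, and Tfpi2, a protease inhibitor of the matrix, each at -1.14, out of 4 genes at that distance. For Fabp4 they were the chemokine Ccl7 and fibronectin, Fn1, each at -0.82, and the mast cell protease Cpa3, at -0.70. With a single difference per gene, such likeness is loose.

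Promoter sequences were set beside the genes because the transcription factors of fat-cell differentiation, PPARG and the C/EBP proteins, act on many of them. RefSeq windows of 300 bases (assembly GRCm38.p6, 250 bases before to 50 after an annotated start) were at hand for 7 of the 10 genes, and Fabp4, Lpl and Car3 were not analysed here. Both strands were searched for AGGTCA, the core motif of nuclear receptors, for the DR1 element, a direct repeat of that core with a spacer of 1 base to which PPARG and RXR bind, for TTGCNNAA, a C/EBP motif, and for GACCACCC, the core of the GLI motif. The AGGTCA core was found in Cd36 alone of the 7 genes, against 16.3% of 32851 promoter windows, and the direct repeat, present in 0.0396% of windows, in none of the 7. The C/EBP motif was found for Lep, Plin1 and 1 of the 2 starts of Cidec, 3 of 7 genes against 10.8% of windows. The GLI core, in 0.807% of windows, was found in none of the 7. The windows of Cd36, the gene above the silent-gene range with a match, and of Plin1 and Lep, which hold a C/EBP match near the start, are printed 5′ to 3′ on the gene's strand with the matched letters in capitals. They are chr5:17835847-17836146 (minus strand), chr7:79732727-79733026 (minus strand) and chr6:29059971-29060270 (plus strand).
Cd36: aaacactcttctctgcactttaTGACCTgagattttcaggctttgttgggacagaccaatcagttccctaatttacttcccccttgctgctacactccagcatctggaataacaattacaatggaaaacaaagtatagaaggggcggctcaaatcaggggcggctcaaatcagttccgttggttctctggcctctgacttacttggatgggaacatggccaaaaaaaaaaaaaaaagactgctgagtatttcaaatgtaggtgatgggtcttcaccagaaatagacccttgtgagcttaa
Plin1: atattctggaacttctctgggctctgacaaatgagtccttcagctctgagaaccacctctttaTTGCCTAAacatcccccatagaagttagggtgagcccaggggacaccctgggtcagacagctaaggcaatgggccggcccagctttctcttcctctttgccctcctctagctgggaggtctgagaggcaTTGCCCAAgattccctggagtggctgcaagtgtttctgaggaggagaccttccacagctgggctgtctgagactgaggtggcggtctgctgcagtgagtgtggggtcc
Lep: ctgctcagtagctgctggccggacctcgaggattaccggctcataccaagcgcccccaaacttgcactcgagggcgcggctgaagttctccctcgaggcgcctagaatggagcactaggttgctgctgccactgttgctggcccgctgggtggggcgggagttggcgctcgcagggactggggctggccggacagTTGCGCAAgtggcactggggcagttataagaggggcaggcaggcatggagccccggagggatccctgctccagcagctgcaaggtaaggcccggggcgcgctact
The match in Cd36 begins at position -228 from the annotated start and reads as the reverse complement of the core. Those in Plin1 begin at -187 and -58, and the palindrome in Lep at -55. The matches describe letters in these windows and not binding: Cd36 and Plin1 were lower by 0.57 and 0.55, and Lep by 0.20 at a dim signal.

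Among the factors themselves the differences varied. Pparg, the nuclear receptor that drives fat-cell differentiation, had 7.38 in control and 7.30 in ablated cells (difference -0.08). The C/EBP genes were lower, Cebpa at 6.42 and 5.89 (-0.53), dim in both, Cebpd at 7.35 and 6.83 (-0.52), and Cebpb at 8.65 and 8.37 (-0.28), above the silent-gene range in both. Of 16 adipogenic transcription factors passing the filter, 11 were lower and 5 higher, against 44.8% lower among all genes passing, with a median of -0.14 (-0.04 with a filter at the 75th percentile) and 0 at least 2-fold apart. Of all 23 found, 14 were lower (median -0.10). Lowest were Gata2, which holds back fat-cell differentiation (6.79 and 6.14, difference -0.65), Ebf2, a factor of fat-cell precursors (6.90 and 6.33, -0.57, or -0.21 with its rows averaged), and Cebpd. Gata2 and Ebf2 passed the filter through the control alone and were dim in both samples, and the ablated signal of Cebpd was dim.

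Other genes of fatty acid uptake and of fat synthesis differed little by their medians, though single genes differed by more. Of 17 uptake and activation genes passing the filter, 12 were lower, 4 higher and 1 at 0 (median -0.16, or -0.075 with a filter at the 75th percentile), against 44.8% lower among all genes passing, with 0 at least 2-fold lower, against 1.73% of all genes passing. Angptl4, a secreted inhibitor of lipoprotein lipase, had 8.46 and 7.65 (difference -0.81), above the silent-gene range in both samples. Its difference was larger than those of Fabp4 (-0.79), Lpl (-0.77) and Cd36 (-0.57). Gpihbp1, the capillary protein that holds lipoprotein lipase on the endothelium, had 6.55 and 5.94 (-0.61). The caveolar coat protein cavin-1, listed as Ptrf, had 7.68 and 7.14 (-0.54), dim in the ablated sample. Lpl, its inhibitor and its capillary anchor were thus each lower, with Gpihbp1 dim in both samples and past the filter through the control alone. Of all 20 found, 14 were lower (median -0.15). Of 18 genes of triglyceride and fatty acid synthesis, 6 were lower and 12 higher (median 0.075), and of all 26 found, 12 were lower (median 0.01). The insulin receptor substrate Irs2 had 9.77 and 10.33 (0.56, or 0.225 with its rows averaged), the sterol sensor Insig1 had 8.47 and 8.91 (0.44), and malic enzyme, Me1, had 6.83 and 6.37 (-0.46), dim in both and past the filter through the control alone. Among 13 lipolysis and droplet genes passing, 6 were lower and 7 higher (median 0.03, which turned to -0.11 with rows averaged). Of all 19 found, 10 were lower (median -0.09). Monoacylglycerol lipase, Mgll, was at -0.42, dim in both samples. The perilipin Plin3 was at -0.35, dim in the ablated sample. The perilipin Plin4 was at -0.30, dim in both and passing through the control alone.

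Among other secreted factors known from fat tissue, Ccdc80 differed by more than any of the 10 genes. Of 10 passing the filter, 7 were lower (median -0.235, or -0.50 with a filter at the 75th percentile), and of all 17 found, 12 were lower (median -0.28). Ccdc80, a secreted matrix-binding protein, had 8.87 in control and 7.14 in ablated cells (difference -1.73, or -1.18 with its rows averaged), of which the ablated signal was dim. It is also a product of fibroblasts. Of 4 receptors for adipokines passing the filter, 1 was lower and 3 higher (median 0.055), and of all 7 found, 4 were lower (median -0.01). The adiponectin receptor Adipor2 was at 0.21, and the adiponectin-binding cadherin Cdh13, dim in both samples, at -0.28. Cap1, an actin regulator described as a resistin receptor in human monocytes, was at 0.06. Of 12 thermogenic genes, 2 passed the filter and 0 stood above the silent-gene range in both samples. These 2 were Dio2, the thyroid hormone deiodinase (7.31 and 6.32, -0.99, or -0.36 with its rows averaged), and the beige-cell surface gene Tmem26 (6.81 and 6.43, -0.38). Both passed through the control alone, so their lower values were favoured by the filter. Of all 12 found, 9 were lower (median -0.085).

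Genes of fat-cell progenitors held the lowest single values of the lists around the fat genes. Of 15 above the filter, 13 were lower (median -0.37), against 44.8% lower among all genes passing. At least 2-fold lower were 5, against 1.73% of all genes passing. Of all 16 found, 13 were lower (median -0.365). Pdgfra, the receptor that marks fat-cell progenitors and fibroblasts, had 9.69 in control and 7.71 in ablated cells (difference -1.98). Pdgfrb, a receptor of progenitors and pericytes, had 8.72 and 6.91 (-1.81), the latter a dim signal, so that the size of this difference is uncertain. The surface peptidase Mme had 9.78 and 8.06 (-1.72), above the silent-gene range in both. Pi16 and dermatopontin, Dpt, were each at -1.08. All 5 of these genes are also fibroblast genes. The 2 higher genes that passed were the surface genes Ly6a (0.05) and Cd24a (0.30). Dpp4 (-0.02) and Icam1 (-0.18), also surface genes of the list, differed little. Cd34 had 9.79 and 8.87 (-0.92, or -0.43 with its rows averaged), and F3 was at -0.49, both above the silent-gene range in both samples.

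**Figure D3:**
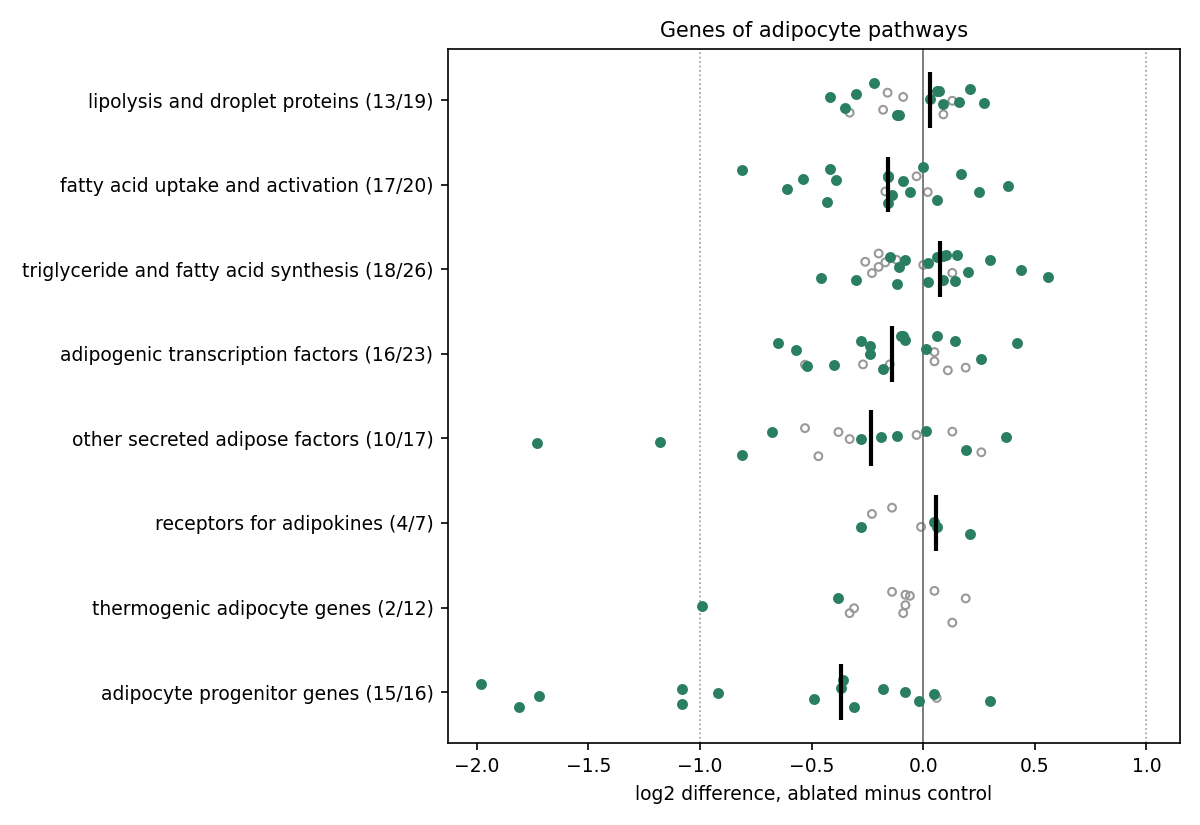
The log2 difference (ablated minus control) of each gene in 8 lists around the fat genes, 1 array per group; filled points pass the signal filter, open points do not, and a bar marks the median where at least 3 pass. Numbers in brackets give genes passing and genes found; progenitor genes reach -1.98, and genes of triglyceride and fatty acid synthesis lie around 0.

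Close relatives of the 10 genes had differences in both directions. Beside Fabp4 (-0.79), Fabp3, the heart-type carrier, had 9.32 and 9.49 (difference 0.17). Fabp5, the epidermal-type carrier, had 7.67 and 7.24 on the brightest of its 4 rows (-0.43), dim in the ablated sample. Beside Car3 (-1.15), Car2 had 8.87 in both samples, Car5b, the mitochondrial form, had 7.52 and 7.40 (-0.12), and Car13 had 8.09 and 7.56 (-0.53). The resistin relative Retnla, a product of alternatively activated macrophages, had 10.91 and 11.28 (0.37), in contrast to the dim Retn (-0.32). Plin2, the perilipin found in most cell types, had 8.74 and 8.52 (-0.22). Beside Pnpla2 (-0.05), Pnpla6 was at 0.04, Pnpla7 at 0.05 and the mitochondrial Pnpla8 at 0.43. The other class B scavenger receptors had -0.33 (Scarb1, dim in the ablated sample) and -0.17 (Scarb2) beside Cd36 (-0.57). Of the 6 relatives of adiponectin passing the filter, 4 were lower (median -0.21), and of all 9 found, 5 were lower (median -0.12). C1qtnf4, above the silent-gene range in both samples, had 0.09, while C1qtnf7 (-0.77), C1qtnf6 (-0.54) and C1qtnf1 (-0.30) were dim in both and passed through the control alone. Shared probes between relatives cannot be checked from the table.

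Markers of several other stromal cell types were lower beside the fat genes. In a list of 24 adipocyte markers that holds all 10 genes, 4 stood above the silent-gene range in both samples, all of them among the 10, and 18 in neither. Among the 14 others, the adipocyte complement factor Cfd had 5.73 and 5.70, and hormone-sensitive lipase, Lipe, had 6.83 and 7.10 (difference 0.27), each below the silent-gene values. The 10 genes carried most of this list: the summed linear signal of all 24 in the ablated sample was 69.8% of the control, and that of the 14 others 91.7%, with 11 of these 14 lower (median -0.115). Endothelial markers stood above that range in both samples in 5 of 16 cases. All 16 were lower (median -0.38), against 47% of all genes. The cadherin Cdh5 had 10.21 and 9.36 (-0.85), and Kdr had 7.24 and 6.60 (-0.64, dim in the ablated sample). Cldn5 had 6.73 and 5.73 (2-fold lower, dim in both). The median of the 14 passing the filter was -0.415, of which Cldn5, Tek and Gpihbp1 passed through the control alone. Their summed linear signal was 74.9% of the control. Macrophage markers stood above the silent-gene range in both samples in 10 of 17 cases. Of all 17, 12 were lower (median -0.19), against 47% of all genes. Lowest were Aif1 (-0.60), dim in both samples and past the filter through the control alone, and C1qa (-0.59) and Fcgr1 (-0.53), both dim in the ablated sample. Their summed signal was 88.1% of the control. Both are cell types that use Fabp4 and Cd36, and their part in these differences was not tested.

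Fibroblast markers stood above the silent-gene range in both samples in 12 of 14 cases. All 14 were lower (median -0.845), against 47% of all genes, and 6 were at least 2-fold lower, against 0.933% of all genes. The summed signal of the 14 was 59.9% of the control. Pericyte and smooth muscle markers stood above the range in both samples in 2 of 8 cases and in neither sample in 6. All 8 were lower (median -0.375), against 47% of all genes. T and NK cell markers, all 14 above the range in both samples, were higher in 13 of 14 cases (median 0.25), led by Klrk1 (0.96) and Ncr1 (0.72). The other 1 was lower, against 38.5% lower among all genes above the range in both samples, whose median was 0.04. All 6 B cell markers were above the range, with a median of 0.035 that loess scaling took to -0.0096. The median of 7 luminal epithelial markers passing the filter was -0.02 (-0.23 with rows averaged), and of all 11 found, 7 were lower (median -0.13). Basal markers had 1 of 6 passing, Myh11 at -0.30, dim in both samples. Of all 6 basal markers, 3 were lower (median -0.15). The globin gene Hba-a2 had 10.23 and 9.09 (-1.14, or -0.635 with its rows averaged). Dissociation stress genes, all 17 above the range in both samples, were higher in 13 of 17 cases (median 0.26), led by Hsph1 (0.88) and Dnajb1 (0.55). The other 4 were lower, against 38.5% lower among all genes above the range in both samples. The sort thus held RNA of lymphoid genes at signals far above the silent genes in both samples, beside that of fibroblasts. Luminal epithelial markers stood above the silent-gene range in both samples in 5 of 11 cases, among them Krt8 (10.06 and 10.18). Macrophage markers did so in 10 of 17 cases, among them Lyz2 (10.82 and 10.63). Because Car3 is also a muscle gene, 14 skeletal muscle markers were looked at after its value was seen. Of these, 0 stood above the silent-gene range in either sample, with a median signal of 5.83 in the control. Of the 14, 7 were lower and 7 higher, against 47% of all genes lower. Ckm, the muscle creatine kinase, had 5.60 and 5.50 (-0.10, or -0.33 with its rows averaged). Whether muscle RNA had a part in the signal of Car3 was not tested.

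**Figure D4:**
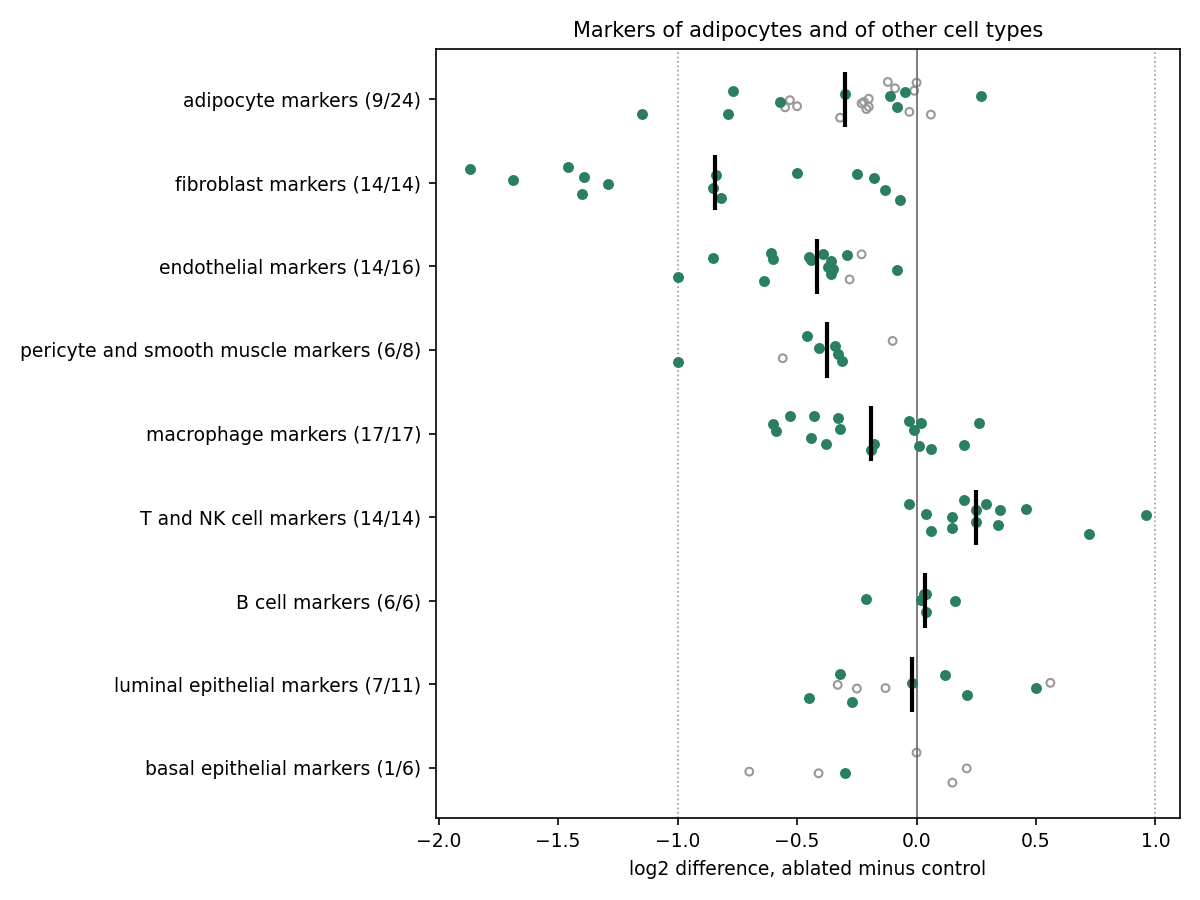
The log2 difference (ablated minus control) of markers of adipocytes and of 8 other cell classes, 1 array per group; filled points pass the signal filter, open points do not, and a bar marks the median where at least 3 pass. Fibroblast markers have the lowest median, -0.845, adipocyte markers have -0.30 with 15 of 24 genes open (-0.095 over the 4 filled points outside the 10 genes), and T and NK cell markers have 0.25.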

How the data were processed

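RNA of 2 sorted samples, 1 control and 1 with stromal Gli2 ablation, was measured on Affymetrix arrays from biotinylated cRNA, per the labels' protocols. The deposited log2 signals are bi-weight averages per transcript cluster, per the file headers, for 41345 clusters, 27036 of them with a gene symbol. A signed linear fold, control over ablated, was deposited beside them; this score, which the authors deposited per the file headers, is negative for genes brighter in ablated cells. The submitters' processing notes name Transcriptome Analysis Console. Array design, background correction, normalization and build were not given in the sources used here. A second deposited table held the same log2 signals with more decimals, beyond a rounding tolerance of 0.0051 in 2 rows only, neither from the 10 genes.

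Genes were the brightest row of each of 24646 symbols. With 1 array per group nothing was tested: genes were counted by a fixed size of 2-fold. Precision is limited by the number of arrays. The 10 genes and the 32 gene lists (306 of 310 distinct genes matched, 4 of them by an alias) were chosen with earlier results of these data known. Genes named were all 10, the 3 farthest from 0 per list, those at least 2-fold apart passing the signal filter, relatives above the silent-gene range, and the 3 nearest to Car3 and Fabp4; not all are printed, and others named were chosen after their values were seen. Counting was tested on simulated data. Alternatives were quantile, loess (span 0.3) and median scaling, averaged rows, the second table, the deposited fold, other folds, filters and silent-gene percentiles. Software was matplotlib 3.10.9, statsmodels 0.14.6, pandas 2.3.3, numpy 2.4.6 and Python 3.11.15.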

Additional observations from a re-analysis of the deposited data

How the results depend on the processing

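No paired analysis was possible because each group holds 1 sample. The alternatives left 9 or 10 of the 10 genes lower. Cidec turned to 0.00198 under loess scaling and was at 0 under quantile scaling, while no other gene of the 10 changed sign under any alternative run. The count of genes at least 2-fold lower, 1 by the brightest row, was 0 with the rows of a symbol averaged, where Car3 was at -0.955 and Lpl at -0.525, since the dim second rows then count as much. It was 3 at 1.5-fold and 0 at 3-fold, as those thresholds imply. Over the alternatives Car3 ran from -1.17 to -0.955, Fabp4 from -0.84 to -0.79, Cd36 from -0.61 to -0.56 and Plin1 from -0.56 to -0.52. The median of the genes passing the filter, -0.77, was -0.435 with no filter, since the 5 dim genes then enter.

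The median of the lipolysis and droplet genes turned to -0.11 with rows averaged and -0.09 with no filter, that of the receptors for adipokines to -0.01 with no filter, and that of the B cell markers to -0.0096 under loess scaling, and the cause was not tested. A filter at the 75th percentile gave the adipocyte markers a median of -0.77. The fat genes, which are part of that list, had the same median with this filter, so it is no separate result on other adipocyte markers. The 4 other markers that passed the main filter had a median of -0.095. A filter on the mean signal (6.34), chosen after seeing the data, gave the fat genes -0.77, the endothelial markers -0.37 and the adipogenic factors -0.10, and turned no list's median. The number of genes above the silent-gene range in both samples, 4, was 5, with Car3, at the 90th percentile and with Olfr genes alone, and 3, without Lpl, at the 99th. It was also 5 with 1 row per silent gene, an alternative chosen after seeing the data, which put the limits at 6.67 and 6.78. Signal over background limits all statements on Plin1, Cidec, Adipoq, Lep and Retn.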
